A study of Mus musculus with 6 samples.

Results

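The genes described here are 38 genes of the p53 response and of apoptosis, chosen by name from the 44792 genes of a bulk RNA sequencing table. The tumour suppressor p53, encoded by Trp53 in the mouse, is a transcription factor that is held low by the ubiquitin ligase MDM2 and its partner MDM4. When it is stabilised by DNA damage or other stress it switches on genes for growth arrest, repair and cell death, among them Mdm2 itself. In the mitochondrial route to apoptosis, BH3-only proteins of the BCL2 family release the pore formers BAX and BAK1 from their antiapoptotic relatives, and the cytochrome c that leaks out assembles APAF1 and caspase 9 into the apoptosome. Death receptors such as FAS act through caspase 8, and loss of medial smooth muscle cells by apoptosis is a known feature of vascular disease.

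The libraries came from primary cultures of vascular smooth muscle, the contractile layer of arteries, from C57BL/6 mice. The knockout libraries (KO, n = 3, genotype Ncor1-/-) came from mice with a smooth muscle deletion of Ncor1, which encodes the nuclear receptor corepressor NCOR1, and the wild-type libraries (WT, n = 3) came from littermate controls. Cells of the study were exposed to 4-hydroxytamoxifen (4-OHT), the ligand that induces the deletion. The sources used here do not give the Cre driver, the age of the mice or the length of exposure. The stated design has 3 mice per group but also speaks of technical replicates, so the p-values below cover library-to-library variation and may not reflect differences between animals.

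Total counts were 7125538 to 9579490 per KO library and 7231968 to 9005690 per WT library, and each member was detected in all 6. Values are CPM, which are counts scaled by library totals adjusted with TMM factors. Log2 fold changes are KO over WT, each with its fitted standard error (SE), and adjusted p-values come from the quasi-likelihood test of edgeR with Benjamini-Hochberg adjustment over 13323 genes. Ncor1 stood at 99.3, 93.7 and 94.4 CPM in the KO libraries, against 213, 223 and 230 CPM in the WT libraries (log2 fold change -1.21, SE 0.0445, adjusted p = 1.08e-33). Smooth muscle markers were lower in KO for 11 of 12 genes (median log2 fold change -2.25; summed level 3942 to 4143 CPM in KO and 11612 to 11828 CPM in WT), with log2 fold changes of -3.35 for Myh11, -3.20 for Actg2 and -2.66 for Cnn1. Most markers of other cell types were higher. Of 20 macrophage and leukocyte markers 18 were higher and 2 did not pass (median 3.24; summed level 634 to 689 CPM in KO and 54.7 to 83.4 CPM in WT), with log2 fold changes of 4.54 for Mrc1, 3.95 for Ctss and 3.87 for C1qb. Of 20 endothelial markers 19 were higher and 1 lower (median 1.71; summed level 7414 to 7585 CPM in KO and 2177 to 2251 CPM in WT), with log2 fold changes of 2.61 for Plvap, 2.19 for Mmrn2 and 2.02 for Esam. No marker of these lists was at 0 in all libraries of a group. The part of other cell types in the results below was not tested, and in bulk RNA fewer cells of a type and less RNA per cell cannot be told apart.

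All 38 members passed the filter on low counts. In KO, 21 members were higher (55.3%) and 5 lower (13.2%), while 12 did not pass the test. Among all tested genes 26.4% were higher and 26.2% lower, and 52.6% were called either way against 68.4% of the members. The members' median level was 61.0 CPM, against 23.7 CPM for all tested genes. With a log2 fold change of at least 0.5 either way, 15 of 38 members were called (39.5%), against 25.6% of all tested genes. With a fold of at least 2 it was 5 of 38 (13.2%), against 13.0% of all tested genes. The KO and WT libraries did not overlap for 22 members with KO above WT and for 7 with KO below WT, where the shares over all tested genes were 29.0% and 28.8% (57.8% either way). The median log2 fold change of the members was 0.26, against 0.00 over all tested genes.

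**Figure D1:**
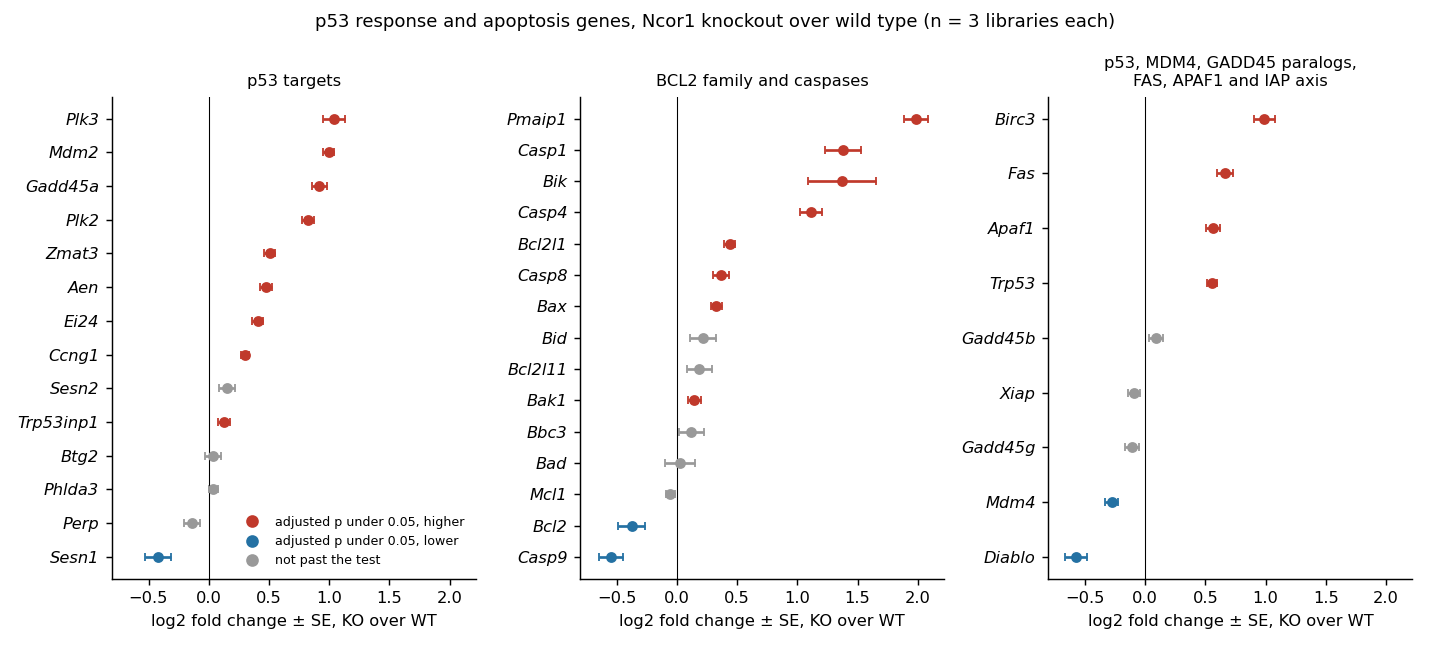
Log2 fold change with its standard error (horizontal axis, KO over WT, n = 3 libraries each) for each of the 38 members, in 3 panels by role; red and blue points passed the test upward and downward, grey points did not. The increases reach 1.98 for Pmaip1, while the 5 decreases stay between -0.28 for Mdm4 and -0.57 for Diablo.

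Trp53 and the gene for its main inhibitor were both higher in the knockout, and the gene for the partner inhibitor was lower. Trp53 stood at 175, 172 and 177 CPM in the KO libraries, against 118, 119 and 119 CPM in the WT libraries. The lowest KO library lay far above the highest WT library, and the log2 fold change was 0.56 (SE 0.0433, adjusted p = 1.06e-17). A processed copy, Trp53-ps, is listed with 39 to 65 counts per library, and how reads shared with it were counted is not known. Mdm2, the ubiquitin ligase that targets p53 and is itself a p53 target, had 230, 221 and 223 CPM in KO, against 119, 114 and 105 CPM in WT. The libraries of each group lay close together, and the fitted change was 1.99-fold (log2 fold change 1.00, SE 0.0441, adjusted p = 1.81e-29). Mdm4, a relative of MDM2 that blocks p53's transactivation domain, had 87.1, 78.8 and 80.2 CPM in KO, against 100.1, 106 and 91.7 CPM in WT. All 3 KO libraries were below all 3 WT libraries (log2 fold change -0.28, SE 0.0546, adjusted p = 1.56e-05), although limma on log2 FPKM values gave adjusted p = 0.152 to 0.229.

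The balance of the MDM genes can be read within a library, where library scaling cancels. The ratio of Mdm2 to Mdm4 FPKM was 6.18, 6.58 and 6.50 in the KO libraries, against 2.77, 2.52 and 2.67 in the WT libraries, a 2.42-fold difference. The groups did not overlap. This ratio and the ratios of other pairs below were chosen after their values were seen, so they are given as a description. An exact two-sided permutation test gave p = 0.1 for each of the 4 ratios. With 3 libraries per group it can give no smaller value, so it cannot decide.

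**Figure D2:**
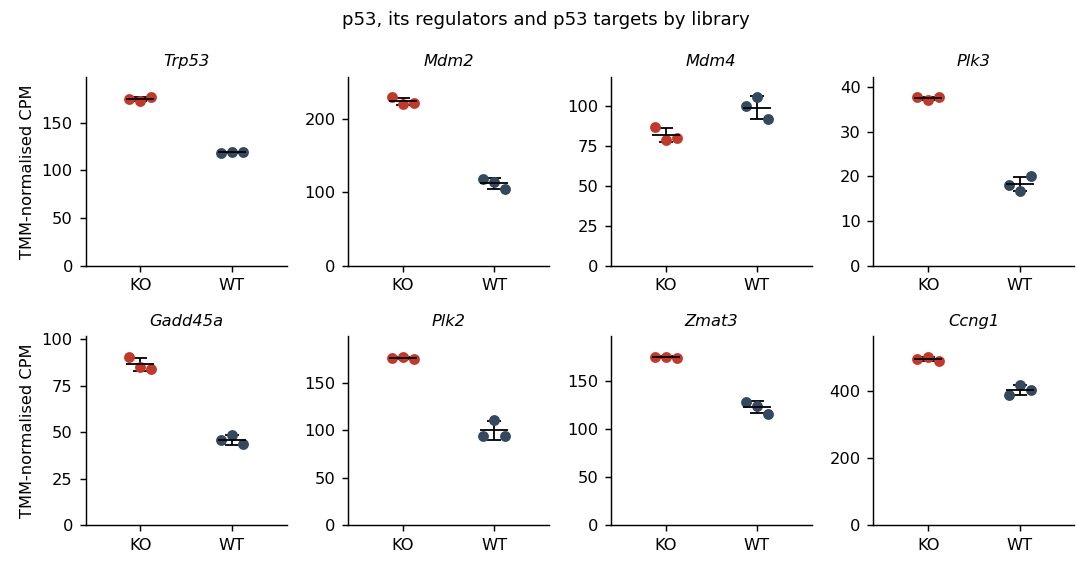
TMM-normalised CPM (vertical axes, from 0) of Trp53, Mdm2, Mdm4 and 5 p53 targets in each KO and WT library (points), with the mean and SD (bars, n = 3). In each panel the KO and WT points do not overlap; only in the Mdm4 panel do the KO points lie lower.

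Among the 14 members listed as p53 targets, 9 were higher in KO (64.3%), 1 was lower (7.14%) and 4 missed the threshold. The list covers arrest, repair and stress control, and with Aen, Perp and Trp53inp1 also cell death. The shares over all tested genes were 26.4% higher and 26.2% lower. The median log2 fold change of the 14 targets was 0.35. The largest increase was in Plk3, which encodes a polo-like kinase of the stress response. It had 37.7, 37.0 and 37.7 CPM in KO, against 18.04, 16.7 and 20.03 CPM in WT. That is a 2.06-fold change (log2 fold change 1.04, SE 0.0884, adjusted p = 3.54e-16), with nearly identical KO libraries. Plk2, a polo-like kinase acting on centriole duplication, had 176, 177 and 175 CPM in KO, against 93.7, 111 and 94.0 CPM in WT. WT replicate 2 was the highest of its group and still far below KO (log2 fold change 0.82, SE 0.0487, adjusted p = 2.55e-22).

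Gadd45a, a stress sensor that binds PCNA and p21 and takes part in repair and arrest, had 90.6, 85.1 and 84.3 CPM in KO, against 45.5, 48.4 and 43.4 CPM in WT. The change was 1.89-fold (log2 fold change 0.92, SE 0.061, adjusted p = 9.46e-21). Its exons overlap those of E230016M11Rik on the opposite strand in the GENCODE annotation of GRCm38. That gene has at most 125 counts in a library, and since the use of strand in counting is not given, reads from the pair cannot be told apart. The GADD45 relatives, Gadd45b and Gadd45g, which are less tied to p53, did not pass the test (log2 fold changes 0.089 and -0.11; Gadd45g was lower with adjusted p = 0.0293 without KO replicate 1 and turned to 0.026 with library totals alone). Zmat3, an RNA-binding zinc finger protein downstream of p53, had 176, 176 and 174 CPM in KO, against 129, 125 and 116 CPM in WT (log2 fold change 0.50, SE 0.0442, adjusted p = 1.22e-15).

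The other p53 targets that rose did so by less. Aen, an apoptosis-enhancing nuclease, had a log2 fold change of 0.48, Ei24, a protein of the endoplasmic reticulum, one of 0.41, and Ccng1, which encodes cyclin G1, one of 0.30. Ccng1 was the most abundant of the targets in CPM, with 497 ± 6.82 in KO and 404 ± 15.7 in WT (SD, n = 3 each). Trp53inp1, a p53-induced regulator of autophagy and cell death, was higher by 0.13 (adjusted p = 0.0302), a call lost with the DESeq2 test (adjusted p = 0.149), without KO replicate 1 (0.146) and without WT replicate 1 (0.247). Sesn1, a sestrin that restrains mTORC1, was the target that fell, with 14.9 ± 1.65 CPM in KO and 19.8 ± 0.439 CPM in WT (log2 fold change -0.42, SE 0.110, adjusted p = 8.99e-04). Limma on log2(FPKM + 1) without a filter gave adjusted p = 0.0718 for it. Its paralog Sesn2 did not pass (0.15, adjusted p = 0.0602), nor did the AKT inhibitor gene Phlda3 (0.037), the antiproliferative gene Btg2 (0.038) or Perp, a desmosomal and apoptotic p53 effector (-0.14, adjusted p = 0.0594). Without WT replicate 3 Sesn2 was higher (adjusted p = 0.0238) and Perp lower (0.019). The sign of Btg2 turned without KO replicate 2 or WT replicate 1.

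Promoter sequence is shown for members that hold a close match to the p53 response element, since it is the feature through which p53 reaches its targets directly. The element was searched as the p53 consensus of a pair of 10-base half-sites without spacer, in windows of 300 bases (250 before and 50 from the start site) of RefSeq, build GRCm38.p6. The central C and G of each half-site were required, and at most 3 of the 20 bases could be off the consensus. The consensus is its own reverse complement, so both strands were covered. Windows were found for 33 of the 38 members. For 31 of their 45 windows the bases just after the start were found in a GENCODE transcript of the gene. Start sites of the other windows were not checked further, and distances are from the RefSeq start. A match stood in 5 of those 33 genes (15.2%), namely Ccng1, Aen, Sesn1, Bbc3 and Trp53, against 1.63% of 27025 genes with a window. By role it was 3 of 11 p53 targets (27.3%) and 1 of 13 BCL2 family and caspase genes (7.69%). A perfect single half-site stood in 24.2% of the members and 9.55% of all genes. Many known p53 sites lie in introns outside such windows, as in Mdm2, so a window without a match says only that these letters are not in it. The matches are in capitals in the windows of Ccng1 (chr11:40755237-40755536, minus strand, 195 bases before the start site, 1 base off the consensus), Aen (chr7:78895808-78896107, plus strand, 121 bases before, 3 off) and Bbc3 (chr7:16309333-16309632, plus strand, 97 bases before, 3 off). Aen has a second start site in RefSeq (window chr7:78895677-78895976), and from that one the same match begins 10 bases after the start.
Ccng1: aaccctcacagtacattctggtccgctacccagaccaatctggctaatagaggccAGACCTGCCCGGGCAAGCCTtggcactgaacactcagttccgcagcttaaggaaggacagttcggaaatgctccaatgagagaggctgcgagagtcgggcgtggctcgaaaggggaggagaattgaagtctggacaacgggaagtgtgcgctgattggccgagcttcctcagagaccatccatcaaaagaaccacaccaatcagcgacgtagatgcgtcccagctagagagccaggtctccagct
Aen: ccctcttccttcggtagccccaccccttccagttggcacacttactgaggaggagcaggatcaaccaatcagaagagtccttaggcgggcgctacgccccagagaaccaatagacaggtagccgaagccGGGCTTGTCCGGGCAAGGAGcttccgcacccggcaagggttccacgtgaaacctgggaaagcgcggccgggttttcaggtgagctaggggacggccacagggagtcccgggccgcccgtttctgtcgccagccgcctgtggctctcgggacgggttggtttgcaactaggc
Bbc3: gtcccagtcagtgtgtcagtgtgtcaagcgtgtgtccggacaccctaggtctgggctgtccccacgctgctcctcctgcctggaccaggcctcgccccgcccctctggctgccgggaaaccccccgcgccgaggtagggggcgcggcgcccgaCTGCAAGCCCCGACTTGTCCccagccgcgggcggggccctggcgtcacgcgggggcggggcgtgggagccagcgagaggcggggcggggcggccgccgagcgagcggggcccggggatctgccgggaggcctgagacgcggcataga
The matching 20 bases alone are given for Trp53 (chr11:69580284-69580303), Sesn1 (chr10:41887266-41887285) and, as a well-known p53 target outside the 38, an alternative start of the cell cycle inhibitor gene Cdkn1a (chr17:29090928-29090947), all on the plus strand. Capitals mark bases that match the consensus.
Trp53: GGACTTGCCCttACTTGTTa
Sesn1: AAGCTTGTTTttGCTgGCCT
Cdkn1a: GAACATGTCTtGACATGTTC
The genes with a match did not share a direction in the data. Ccng1, Aen, Trp53 and Cdkn1a were higher in KO, Sesn1 was lower and Bbc3 did not pass the test.

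A second list held 28 p53 target genes apart from those 14, and 27 of them were tested. In KO 16 were higher (59.3%), 2 were lower (7.41%) and 9 had no call, where 26.4% of all tested genes were higher and 26.2% lower. The median log2 fold change was 0.46. Cdkn1a, which encodes the cyclin-dependent kinase inhibitor p21, had 382, 391 and 390 CPM in KO, against 262, 259 and 272 CPM in WT (log2 fold change 0.55, SE 0.036, adjusted p = 3.31e-21). Acer2, an alkaline ceramidase gene, had the largest change, with 97.0, 105 and 81.4 CPM in KO, against 24.6, 25.1 and 28.4 CPM in WT (1.86, SE 0.0887). Gdf15, which encodes a secreted stress cytokine, stood at 94.1 ± 4.61 CPM in KO and 38.9 ± 4.62 CPM in WT (1.28, SE 0.0653). The arrest gene Rprm was higher at a low level, with 2.46 ± 0.419 CPM in KO and 0.878 ± 0.467 CPM in WT (1.49, SE 0.362, adjusted p = 3.64e-04; 0.83 on the log2(FPKM + 1) scale). The 2 genes that fell were Ankra2 (-0.37) and Trp53i13 (-0.35).

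Regulators of p53 did not share a direction. Of 15 listed 13 were tested, with 2 higher (15.4%), 4 lower (30.8%) and a median of -0.013. Over all tested genes 26.4% were higher and 26.2% lower. Cdkn2a, whose locus encodes the p16 and ARF inhibitors and whose ARF product restrains MDM2, was lower by the largest margin. It had 8.17, 8.21 and 11.8 CPM in KO, against 31.9, 27.4 and 32.3 CPM in WT (log2 fold change -1.67, SE 0.116, adjusted p = 2.58e-19), and counts per gene cannot separate its products. The acetyltransferase gene Kat5 was lower by 0.35, a call lost by FPKM (adjusted p = 0.0851 to 0.153), and the checkpoint kinase gene Chek2 was higher (0.48, SE 0.106). The p53 relative Trp63 had 0 counts in all 6 libraries, which allows up to 0.298 to 0.404 CPM per KO library and 0.349 to 0.439 CPM per WT library. Among 20 proliferation genes 4 were higher and 6 lower (median -0.02), with log2 fold changes of 0.31 for Mcm3, 0.30 for Rrm2 and -0.32 for Ccna2, whose call was lost on log2(FPKM + 1) without a filter (adjusted p = 0.0657).

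Among 15 BCL2 family and caspase genes 8 were higher in KO (53.3%), 2 were lower (13.3%) and 5 missed the threshold. Over all tested genes 26.4% were higher and 26.2% lower, and 52.6% were called either way. The median log2 fold change was 0.21. The largest change of all members was that of Pmaip1, which encodes NOXA, a BH3-only protein that neutralises MCL1 and is also a p53 target. It had 41.0, 41.3 and 38.8 CPM in KO, against 10.7, 9.65 and 10.1 CPM in WT. The groups were far apart and the change was 3.95-fold (log2 fold change 1.98, SE 0.0988, adjusted p = 7.96e-27). Bik, another BH3-only gene, was the least abundant of the 38 in CPM. Its 3.45, 3.63 and 3.97 CPM in KO, against 1.16, 1.29 and 1.90 CPM in WT, rest on 27, 27 and 40 counts in KO and 10, 10 and 13 counts in WT. The log2 fold change was 1.37 (SE 0.283, adjusted p = 3.35e-05), and 0.90 on the log2(FPKM + 1) scale.

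The remaining BH3-only genes among the members did not pass the test. Bbc3, which encodes the p53 target PUMA, had 20.2 ± 1.94 CPM in KO and 18.6 ± 1.17 CPM in WT (log2 fold change 0.12, adjusted p = 0.354). Bcl2l11, which encodes BIM, had a log2 fold change of 0.19, Bid one of 0.21 and Bad one of 0.024. Without WT replicate 3 Bcl2l11 was higher (adjusted p = 0.0256), without WT replicate 2 Bid was higher (0.019), and the sign of Bad turned without KO replicate 1 or WT replicate 2. Exons of Bid and Bad overlap those of Bcl2l13 and Gpr137 on the opposite strand, so their counts are uncertain without strand. Within libraries the ratio of Pmaip1 to Bbc3 FPKM was 1.86, 1.605 and 1.78 in KO, against 0.532, 0.458 and 0.443 in WT.

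Of the pore formers, Bax was higher, with 161 ± 12.3 CPM in KO and 129 ± 5.32 CPM in WT (log2 fold change 0.33, SE 0.0474, adjusted p = 3.11e-08). Bax exons overlap those of Gm45808 on the same strand. That gene has no counts listed, and how shared reads were counted is not known. Bak1 was higher by 0.14 (adjusted p = 0.0266), which did not hold with the DESeq2 test (0.143), nor without KO replicate 1 (0.0501), KO replicate 3 (0.0638) or WT replicate 2 (0.187). The antiapoptotic members moved apart. Bcl2l1, which encodes BCL-XL, was higher, with 131, 131 and 132 CPM in KO, against 97.3, 97.3 and 96.6 CPM in WT (0.44, SE 0.047, adjusted p = 2.67e-12). Bcl2 itself was lower, with 13.4, 13.6 and 12.8 CPM in KO, against 17.7, 17.1 and 16.7 CPM in WT (-0.38, SE 0.114, adjusted p = 0.0042). That call was lost with library totals alone (adjusted p = 0.0654), the DESeq2 test (0.0701) and FPKM (0.148 to 0.176). The antiapoptotic gene Mcl1 did not pass (-0.055, and 0.079 with library totals alone). Per library, the ratio of Bcl2l1 to Bcl2 FPKM was 16.2, 15.9 and 17.1 in KO, against 9.10, 9.40 and 9.59 in WT, and that of Bax to Bcl2 was 92.8, 97.3 and 113 in KO, against 61.3, 59.7 and 66.3 in WT. For these 2 ratios and that of Pmaip1 to Bbc3 the groups did not overlap.

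The caspase genes did not share a direction. The inflammatory caspases, which cleave interleukin precursors and gasdermin D rather than driving apoptosis, rose. Casp1 had 16.5, 13.3 and 13.7 CPM in KO, against 6.17, 5.28 and 5.12 CPM in WT (2.60-fold, log2 fold change 1.38, SE 0.150, adjusted p = 3.87e-12). Casp4, the mouse caspase 11 gene, had 45.8, 43.6 and 45.02 CPM in KO, against 18.04, 25.9 and 18.3 CPM in WT (2.16-fold, log2 fold change 1.11, SE 0.0907, adjusted p = 1.14e-15). WT replicate 2 was the highest WT library for Casp4, well below the KO libraries. Beside these, macrophage and leukocyte markers summed to 634 to 689 CPM in KO and 54.7 to 83.4 CPM in WT, and none was at 0 in all libraries of a group. Casp8, the initiator downstream of FAS, was higher by 0.37 (60.8 ± 1.41 CPM in KO and 46.8 ± 5.62 CPM in WT). Casp9, the initiator of the apoptosome, was lower, with 16.1, 16.02 and 19.97 CPM in KO, against 25.4, 26.5 and 25.1 CPM in WT (-0.55, SE 0.0998, adjusted p = 3.65e-06). Its KO libraries stayed below all WT libraries, with KO replicate 3 the nearest.

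**Figure D3:**
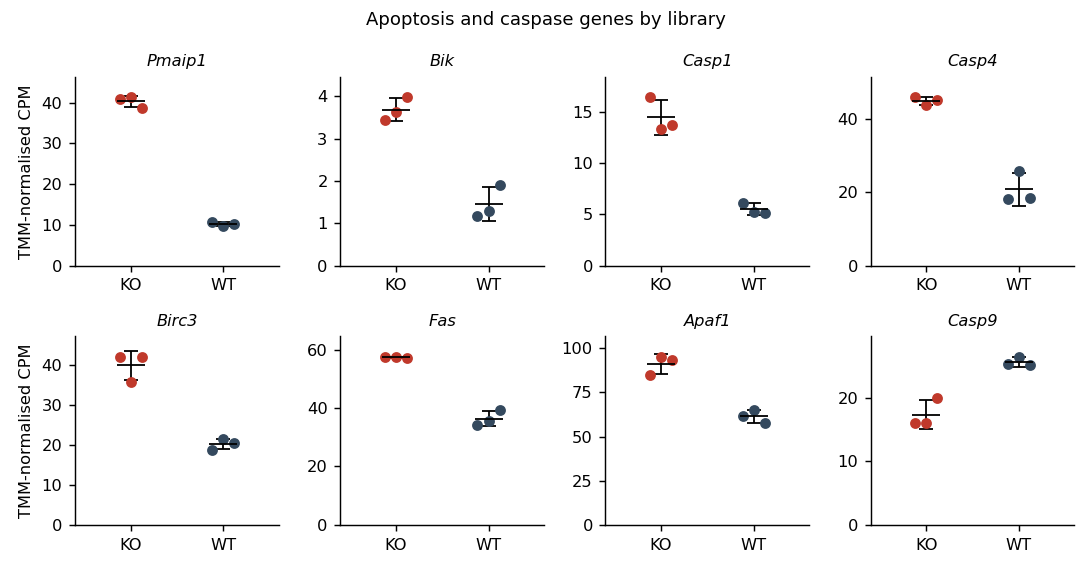
TMM-normalised CPM (vertical axes, from 0) of 8 apoptosis and caspase genes in each KO and WT library (points), with the mean and SD (bars, n = 3). Pmaip1 shows the widest gap relative to WT, about 40 CPM in KO against 10 CPM in WT, and Casp9 is the panel in which KO lies below WT.

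Genes around the death receptor, the apoptosome and the inhibitors of apoptosis completed the set. Fas, which encodes the death receptor and is a p53 target, had 57.6, 57.5 and 57.1 CPM in KO, against 34.2, 35.6 and 39.3 CPM in WT (log2 fold change 0.66, SE 0.0692, adjusted p = 9.35e-13). Apaf1, the apoptosome scaffold gene and also a p53 target, had 84.6, 95.2 and 93.4 CPM in KO, against 61.5, 65.1 and 57.9 CPM in WT (0.57, SE 0.0582, adjusted p = 5.79e-13). For both, every KO library lay above every WT library.

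Birc3, which encodes the NF-kappaB-responsive ubiquitin ligase cIAP2, had 42.1, 35.8 and 42.0 CPM in KO, against 18.9, 21.5 and 20.5 CPM in WT (1.99-fold, log2 fold change 0.99, SE 0.0871, adjusted p = 1.56e-15). Xiap, the direct caspase inhibitor gene, did not pass (-0.096, and 0.038 with library totals alone). Diablo, whose product SMAC leaves mitochondria to block such inhibitors, was lower, with 20.6, 22.9 and 22.6 CPM in KO, against 31.5, 37.7 and 28.9 CPM in WT (-0.57, SE 0.0915, adjusted p = 2.15e-07; -0.38 on the log2(FPKM + 1) scale). KO and WT did not overlap for Diablo, and the WT libraries were the more spread. Diablo exons overlap those of 3 other genes, among them Gm49027 on the same strand. That gene has no counts listed, and how shared reads were counted is not known.

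Further genes of the apoptosis pathway were read from a list of 27, of which 24 were tested. In KO 11 were higher (45.8%) and 3 lower (12.5%), where 26.4% of all tested genes were higher and 26.2% lower. The median of the 24 genes was 0.17. Cflar, which encodes the caspase 8 inhibitor FLIP, had 221, 230 and 212 CPM in KO, against 132, 135 and 136 CPM in WT (log2 fold change 0.72, SE 0.0422, adjusted p = 2.69e-23). Casp12, a caspase gene of the endoplasmic reticulum in mice, was lower (-0.71, SE 0.0644). Bcl2a1b, an antiapoptotic gene of leukocytes with near-identical copies and so of uncertain count, had 3.82 ± 0.168 CPM in KO and 0.498 ± 0.279 CPM in WT. Of 10 genes listed for the inflammasome and pyroptosis, Tlr4 among them, 4 had counts enough to be tested. Gsdmd, which encodes the pore former cut by the inflammatory caspases, was higher (36.4 ± 3.36 CPM in KO and 11.9 ± 0.862 CPM in WT), as were the adaptor gene Pycard (log2 fold change 1.11) and Tlr4, a receptor for bacterial lipopolysaccharide (0.79). Gsdme, another gasdermin gene, was lower (-0.52, adjusted p = 0.0353).

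Set side by side, the p53 targets had a median log2 fold change of 0.35 and the BCL2 family and caspase genes one of 0.21, against 0.00 over all tested genes. The median of the p53 targets relative to the WT mean was 0.35, 0.36 and 0.36 in the KO libraries and lay between -0.01 and 0.02 in the WT libraries. For the BCL2 family and caspases it was 0.22, 0.27 and 0.20 in KO and between -0.01 and 0.00 in WT. Bax, Pmaip1, Bbc3, Fas and Apaf1 are also p53 targets. With them counted as targets the medians were 0.41 for 19 genes and 0.20 for the 12 BCL2 family and caspase genes left. Without Casp1 and Casp4 the median of the BCL2 family and caspases was 0.19. Pmaip1, Fas and Apaf1 lay above the median of the targets, and Casp1 and Casp4 above that of the other list. With values so placed, neither change could test the order of the medians. No test of the difference was made, since the lists were chosen with results known. By function, 5 antiapoptotic members had a median of -0.055 with 2 higher (40%) and 1 lower (20%). The 13 proapoptotic members had one of 0.21 with 7 higher (53.8%) and 2 lower (15.4%). Over all tested genes 26.4% were higher and 26.2% lower. With library totals in place of TMM the median of all tested genes was 0.13, and 5305 of them were higher and 2405 lower. On that scale 28 members were higher and 4 lower, the additional higher ones being Sesn2, Phlda3, Btg2, Gadd45b, Bid, Bcl2l11 and Bbc3.

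**Figure D4:**
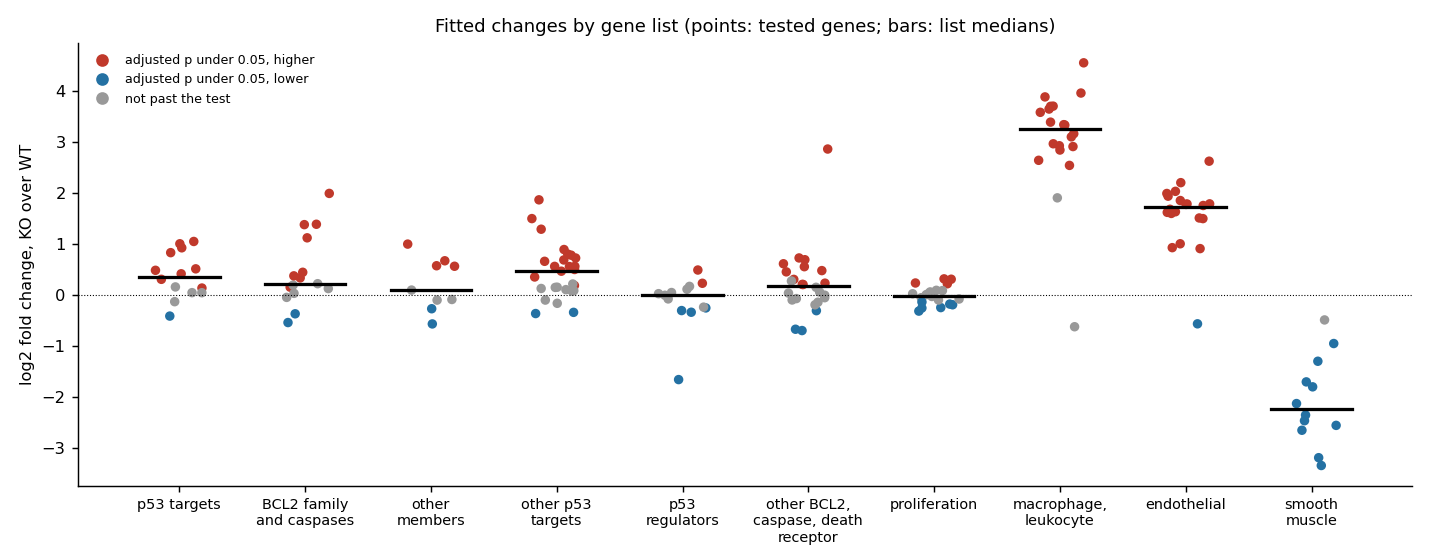
Log2 fold change, KO over WT (vertical axis), of each tested gene in the 3 groups of members and in other gene lists (points; red and blue passed the test, grey did not); black bars are list medians and the dotted line is the median of all tested genes. The medians run from 0.35 for the p53 targets and 0.46 for the other p53 targets to 3.24 for macrophage and leukocyte markers and -2.25 for smooth muscle markers.

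Levels per gene length, as deposited FPKM, ordered the members. Phlda3, Bax and Ccng1 led in both groups, at 184 ± 3.57, 194 ± 15.7 and 149 ± 1.52 FPKM in KO and at 164 ± 5.85, 142 ± 4.996 and 110 ± 4.66 FPKM in WT (SD, n = 3). The order of Phlda3 and Bax in KO lay within their spread. Mcl1 was the most abundant antiapoptotic gene, at 78.7 ± 2.23 FPKM in KO and 74.5 ± 1.55 FPKM in WT. In KO its neighbours in the order were Trp53 (84.7 ± 1.38), Mdm2 (76.7 ± 1.46, within their spread) and Gadd45a (74.0 ± 2.74), whereas in WT Trp53, Mdm2 and Gadd45a stood at 52.6 ± 0.501, 35.0 ± 2.39 and 35.6 ± 2.17 FPKM. Bcl2 was the least abundant member in KO at 1.92 ± 0.0504 FPKM (2.27 ± 0.0776 in WT), and Bik in WT at 0.923 ± 0.245 FPKM (2.57 ± 0.199 in KO). Pmaip1 changed place most, ranking 24 of 38 in KO and 34 of 38 in WT. FPKM are scaled by library totals, which lifts KO values against WT relative to the TMM scale.

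**Figure D5:**
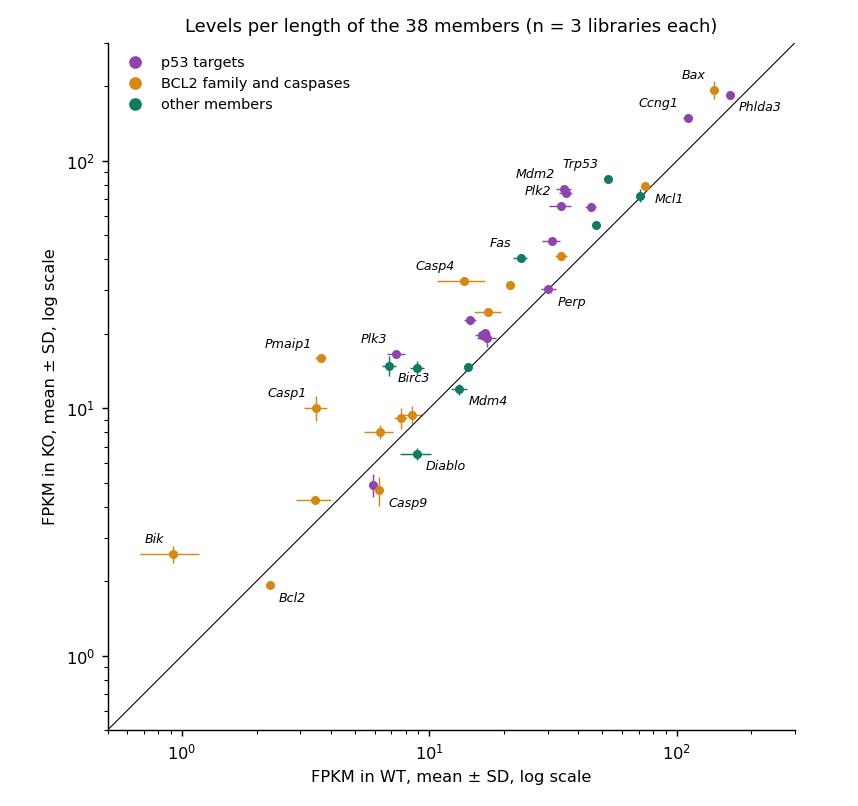
Mean FPKM with SD (n = 3 libraries each) of the 38 members in KO (vertical axis) against WT (horizontal axis), both on log scales; the line marks equal values and colours mark the 3 groups of members. Pmaip1, Casp1 and Bik lie farthest above the line, and Diablo, Casp9, Sesn1, Bcl2 and Mdm4 lie below it, with Perp almost on it.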

How the data were processed

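Gene expression was measured by RNA sequencing in 6 libraries, 3 KO and 3 WT, grouped by the sample titles. HISAT2 2.0 and mm9 are listed in the submitters' processing notes. The sources used here do not give the counter, annotation, strand use or filters. Of the deposited tables, one has raw whole-number counts for each gene. The other has deposited FPKM for the same genes, scaled by gene length and library total: over 12180 genes the implied length differed between libraries by at most 1.05e-05 of its value. Promoter windows come from RefSeq by symbol and were not used in any test.

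Of 23349 genes with a count, 13323 passed filterByExpr and were tested with edgeR 4.0.16 (R 4.3.3) after TMM scaling, with robust dispersions and the robust quasi-likelihood test, two-sided, at an adjusted p of 0.05, without a replicate term. The SE is the log2 fold change over the square root of F. A count of 0 allows 3 counts, which covers counting error only. FPKM were tested with limma 3.58.1 (trend, robust) on log2(FPKM + 1) or log2(FPKM + 0.1), which understates changes of low genes, with or without a minimum of 1 FPKM in 3 libraries. Further alternatives were DESeq2 size factors, library totals alone, no filter, at least 1 CPM in 3 libraries, DESeq2 1.42.0, leaving out each library and the replicate number as a block. The fits were tested on simulated data. Libraries of a group differed by more than sampling noise (chi-square per degree of freedom 1.36 to 1.78), so none was treated as a copy of another. Between groups the value was 52 to 66.5, and the fitted biological coefficient of variation was 3.05%. These values cannot tell separate animals from technical replicates. Tigar, Cop1, Gsdme and Adgre1 were matched by the older symbols of the table.

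The members, the gene lists and the tests were chosen with earlier results of these data known, so lists are described by counts and medians. Values per library are given for Ncor1, Trp53, Mdm2, Mdm4 and members past the test with a log2 fold change of at least 0.5 either way, and for some others. By rule, each further list also gives at most 3 called genes, those of largest change with a mean of 1 CPM or more in the group where they are higher, besides Cdkn1a and Cflar; one further gene is not reported here. Ankra2, Trp53i13, Gsdme and Trp63 were chosen after their values were seen.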

Additional observations from a re-analysis of the deposited data

How the results depend on the processing

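The counts of members were 21 higher and 5 lower by edgeR and 19 and 4 with the DESeq2 test, and leaving out 1 library gave 19 to 23 higher and 5 to 6 lower. By FPKM 3 members were lower in both filtered fits and 2 without a filter, with 2014, 2000 and 2138 of all tested genes lower in the fits with pseudocount 1, pseudocount 0.1 and no filter. In the same order 26, 26 and 25 members were higher, and 4697, 4672 and 4740 of all tested genes. With library totals alone 5305 genes were higher. The median of the p53 targets was 0.49 with library totals alone, 0.48 by log2(FPKM + 1) with or without a filter, 0.49 by log2(FPKM + 0.1), 0.41 with the shared genes counted as targets, and 0.34 to 0.37 without 1 library. That of the BCL2 family and caspases was 0.35, 0.31, 0.31 and 0.35 on the same scales and 0.18 to 0.29 without 1 library. With library totals, log2(FPKM + 1) with and without a filter and log2(FPKM + 0.1), 3 members changed sign, none past the test: Mcl1 (0.079, 0.077, 0.077 and 0.078), Gadd45g (0.026, 0.024, 0.024 and 0.024) and Xiap (0.038, 0.038, 0.038 and 0.040). Leaving out 1 library gave -0.040 to 0.088 for Btg2 and -0.042 to 0.10 for Bad, neither past the test. The median of all tested genes was 0.13 with library totals and 0.12, 0.039 and 0.13 in the FPKM fits in that order. Both scales leave out the TMM factors, which were 1.044 to 1.053 in KO and 0.948 to 0.961 in WT. Why these factors differed between the groups was not tested. Deviations of same-numbered libraries had correlations of 0.0040 to 0.023 across genes, and those of other pairs -0.024 to 0.0066. KO replicates 2 and 3 correlated best with their own number and KO replicate 1 with WT replicate 2. All of these correlations were small, so the numbers were taken as names. The replicate block gave 21 members higher and 5 lower, and 3509 genes higher and 3486 lower. With 10 to 40 counts per library, Bik is the member most limited by depth.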
